A study of Homo sapiens with 4 samples.

Results

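The 38 genes described here encode enzymes of the tricarboxylic acid (TCA) cycle with its pyruvate entry, 22 genes, and enzymes that break down valine, leucine, isoleucine and propanoate, 16 genes. They were picked by gene symbol from the 39261 genes in the expression tables, with earlier results of these data known, and all 38 were found there. The group of 16, called branched-chain genes below, includes ACADM, HADHA and HADHB, which also act in fatty acid oxidation. RNA sequencing had been run on 4 libraries of 2 human breast cancer cell lines, 1 library a group. In MDA-MB-231, a line with mesenchymal features, cells with TMEM126A knockdown were compared with cells that carried the control vector sh-NC. In Ca1a (MCF10-Ca1a), a malignant line derived from MCF10A, cells with TMEM126A overexpression were compared with cells that carried the control vector pCDH. TMEM126A encodes a protein of the mitochondrial inner membrane. All 4 groups had been transduced with lentivirus and were at passages 10 to 15. The labels put MDA-MB-231 in L15 medium with bovine serum, and Ca1a in DMEM/F12 medium with horse serum, insulin, EGF, cholera toxin and hydrocortisone. L15 is a medium that carries galactose in place of glucose and is rich in pyruvate. Line and medium cannot be told apart in any comparison between the lines. With 1 library a group there was no test between conditions, and every interval below is a 95% exact interval that covers counting error only.

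The TCA cycle oxidises acetyl-CoA to carbon dioxide in the mitochondrial matrix and passes the electrons to NADH and to the respiratory chain. Acetyl-CoA from glucose enters through the pyruvate dehydrogenase complex, while pyruvate carboxylase refills the cycle at oxaloacetate. Valine, leucine and isoleucine share their first steps, a transamination and an oxidative decarboxylation by the branched-chain ketoacid dehydrogenase complex, and then part into separate arms that end in acetyl-CoA, acetoacetate or propionyl-CoA. The pyruvate, 2-oxoglutarate and branched-chain ketoacid dehydrogenase complexes share 1 subunit, the flavoprotein DLD.

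The libraries held 20673373 to 21405193 reads assigned to genes. TMEM126A was at 22.9 normalized counts with knockdown against 559 in the control, 24.5-fold lower (16.1 to 38.9), and at 9381 with overexpression against 265 in the control, 35.4-fold higher (31.3 to 40.1). The lines matched their markers: VIM and ZEB1 were the higher ones in MDA-MB-231, and EPCAM, CDH1 and KRT17 in Ca1a. Of 8 markers of immune cells, fibroblasts and endothelium, 7 were under 2 FPKM (fragments scaled by transcript length and library size) in every library, and CD14 reached 4.65 FPKM in the overexpression library. The endothelial marker PECAM1 moved with both constructs, at 0.734 FPKM with knockdown against 0.4 in the control, and at 1.36 with overexpression against 0.865 in the control. CDH5, also endothelial, had 10.9 normalized counts with knockdown against 2.01 in the control, and the fibroblast marker LUM had 18.9 against 46.3 in the control. Both were at 0 in Ca1a. Their part in the results was not tested.

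Most of the 38 genes lay close to their controls under both constructs. The knockdown ratios had a median log2 of 0.04 over the TCA genes and 0.05 over the branched-chain genes, against 0.01 over all 13292 genes tested, those averaging 20 or more normalized counts. The overexpression ratios had medians of 0.12 and 0.14, against 0.01 over 12111 genes. In FPKM the overexpression medians were 0.08 and 0.10, against -0.01 over all genes. Scaled by total reads the knockdown medians were 0.01 and 0.02, against -0.02 over all genes. A gene was called higher or lower where the treated library differed at least 1.2-fold from its control and the interval of the ratio left out 1. The knockdown called 2 of the 38 genes higher and 1 lower, beside 5.33% and 3.39% of all genes tested. The overexpression called 6 of the 38 higher and 0 lower, beside 5.76% and 5.94% of all genes tested. These genes are abundant, with a median over the 38 of 1463 normalized counts in MDA-MB-231 and 1905 in Ca1a. Of the 38, 27 averaged 1000 or more in MDA-MB-231 and 28 in Ca1a. Among all such genes the shares called were 2.66% and 1.43% for the knockdown and 2.84% and 3.75% for the overexpression.

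**Figure D1:**
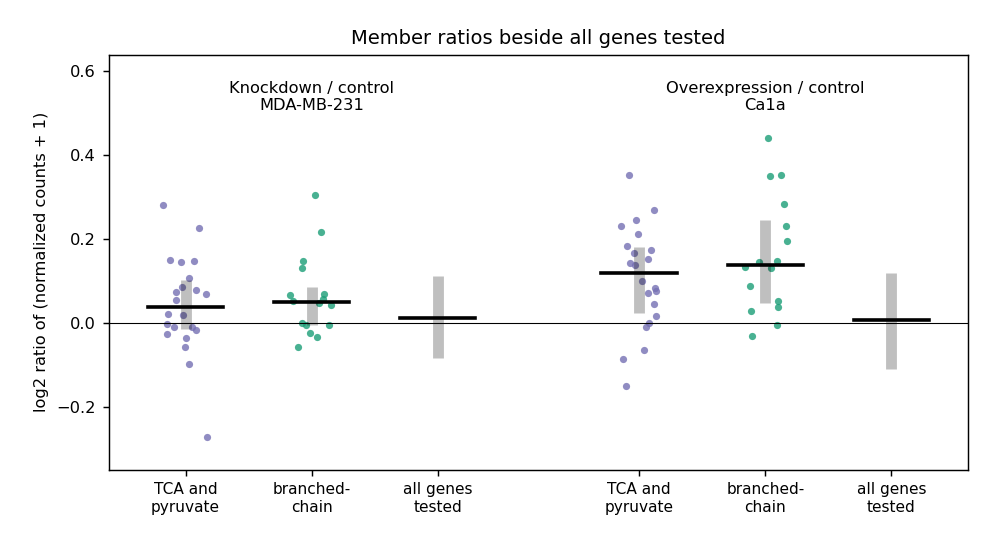
Log2 ratio (vertical axis) of the TCA genes and the branched-chain genes under knockdown and under overexpression, each point the ratio of 1 gene. A line marks the median and a bar the interquartile range, which are also drawn for all genes tested. Both gene groups sit a little above 0 under overexpression (medians 0.12 and 0.14, all genes 0.01).

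In the knockdown library 24 of the 38 genes were above their control, against 53.9% of all genes tested. There 9 of the 22 TCA genes were higher beyond counting error, 1 was lower and 12 had intervals that held 1. Those intervals alone would place 16.8% of all genes tested above 1 and 11.3% below, or 25.3% and 16.2% of genes averaging 1000 or more. PC, pyruvate carboxylase, makes oxaloacetate from pyruvate and lies on chromosome 11 from 66848233 to 66958376 (minus strand, GRCh38). It had 1756 normalized counts with knockdown against 1444 in the control, a ratio of 1.22 (1.13 to 1.3), or 1.19 when scaled by total reads, which is under the threshold. PC was the sole TCA gene called higher there, and in Ca1a it had 1845 normalized counts with overexpression against 1931 in the control, a ratio of 0.955 (0.896 to 1.02).

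PCK2, the mitochondrial phosphoenolpyruvate carboxykinase, draws oxaloacetate off the cycle and lies on chromosome 14 from 24094053 to 24110598 (plus strand). It had 946 normalized counts with knockdown against 1142 in the control, a ratio of 0.828 (0.759 to 0.904). Its level in Ca1a was 3723 normalized counts with overexpression against 4131 in the control, a ratio of 0.901 (0.862 to 0.942). PCK2 was thus the lower one in the treated library of both pairs, but was called only under knockdown. The FPKM ratio of PC to PCK2 was 1.21 with knockdown against 0.818 in the control, so the order of this pair in MDA-MB-231 differed between the libraries, and it was 0.314 with overexpression against 0.299 in the control.

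Among the oxidative steps the knockdown differences were smaller. IDH1, the cytosolic NADP-linked isocitrate dehydrogenase, had 1180 normalized counts with knockdown against 1008 in the control, a ratio of 1.17 (1.07 to 1.27). Its mitochondrial partner IDH2 had 648 with knockdown against 693 in the control, a ratio of 0.935 (0.838 to 1.04). Relative to IDH2, IDH1 was thus at 1.12 in FPKM with knockdown against 0.86 in the control. OGDH, the decarboxylase of the 2-oxoglutarate dehydrogenase complex, had 5542 normalized counts with knockdown against 4996 in the control, a ratio of 1.11 (1.07 to 1.15), while DLST, the transferase core of the complex, was at 0.989 (0.94 to 1.04). PDHX, SUCLG1, FH, MDH1, MDH2 and DLAT made up the rest of the genes above counting error, with ratios between 1.05 and 1.11. CS, the citrate synthase that opens the cycle, was at 0.999 (0.956 to 1.04), and the NAD-linked isocitrate dehydrogenase subunits IDH3A, IDH3B and IDH3G were between 0.96 and 1.01.

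**Figure D2:**
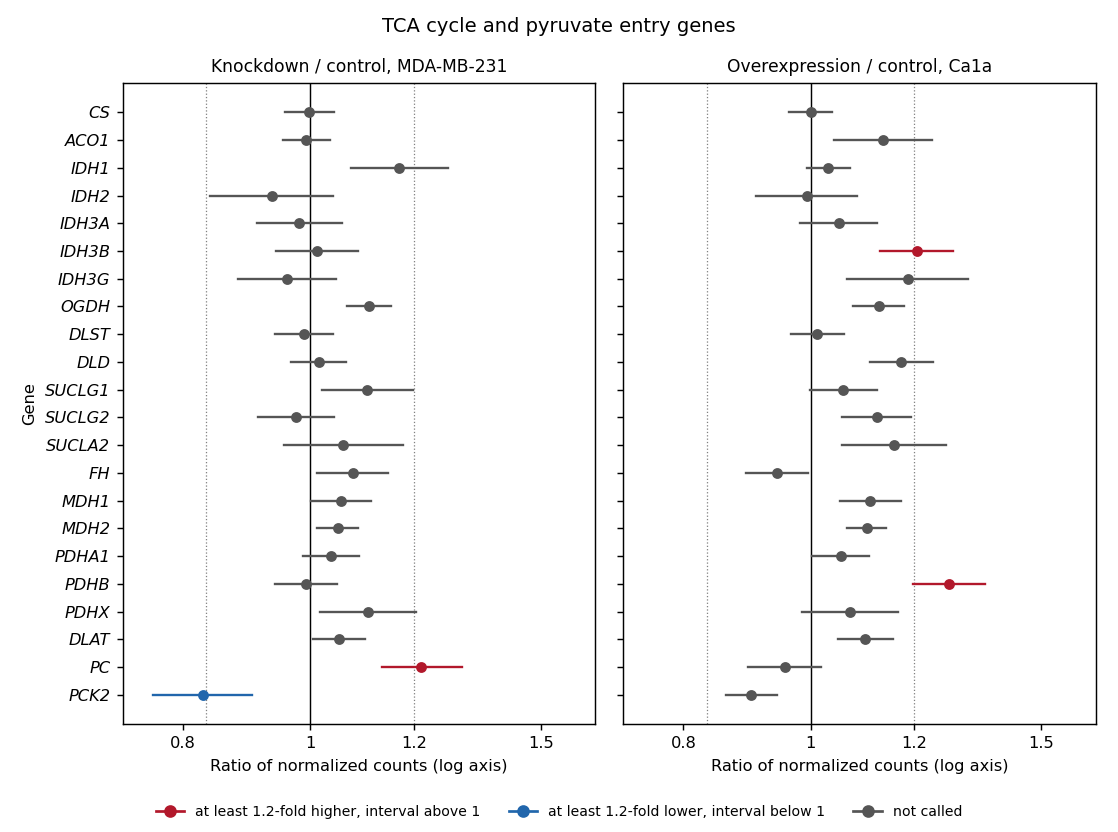
Ratio of treated over control normalized counts (log axis) for each of the 22 TCA genes under TMEM126A knockdown in MDA-MB-231 and overexpression in Ca1a, with 95% exact counting intervals and lines at the 1.2-fold threshold. PC and PCK2 are the genes past the line under knockdown (1.22 and 0.828), and PDHB and IDH3B under overexpression (1.28 and 1.2).

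Of the 16 branched-chain genes, 2 were higher beyond counting error in the knockdown and 14 had intervals that held 1. ALDH6A1, the methylmalonate semialdehyde dehydrogenase, carries out the last step of the valine arm and yields propionyl-CoA. It had 589 normalized counts with knockdown against 477 in the control, a ratio of 1.24 (1.09 to 1.4). ACADSB, the acyl-CoA dehydrogenase of the isoleucine arm, had 627 with knockdown against 539 in the control, a ratio of 1.16 (1.03 to 1.31). HIBCH and HIBADH, which act in the valine arm just before ALDH6A1, were at 0.983 (0.856 to 1.13) and 1.05 (0.991 to 1.11). The intervals of both neighbours thus held 1. BCKDHB, a decarboxylase subunit of the branched-chain complex, was at 1.11 (0.948 to 1.29), and the lowest ratios were those of PCCB, a propionyl-CoA carboxylase subunit, at 0.961 (0.87 to 1.06) and of HADHA at 0.977 (0.933 to 1.02).

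In the Ca1a overexpression library 31 of the 38 genes were above their control and 1, CS, was equal at 5350 normalized counts in both libraries. Of all genes tested, 51.5% were above their control. By the intervals alone 23 of the 38 were higher, 2 were lower and 13 held 1, beside 18.1% and 16.2% of all genes tested, or 26.2% and 23.7% of those averaging 1000 or more. The TCA genes had 12 higher, 2 lower and 8 within, and the branched-chain genes 11 higher, 0 lower and 5 within. Of the genes beyond counting error, 6 differed by at least 1.2-fold.

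PDHB, the beta subunit of the decarboxylase that opens pyruvate dehydrogenase, had the largest ratio of the TCA genes. It had 2209 normalized counts with overexpression against 1731 in the control, a ratio of 1.28 (1.2 to 1.36), and it lies on chromosome 3 from 58427630 to 58433857 (minus strand). In MDA-MB-231 it had 2618 with knockdown against 2636 in the control. The other subunits of the complex were closer to 1 under overexpression, with PDHA1, the alpha subunit that PDHB pairs with, at 1.05 (1 to 1.11), DLAT, the transferase core, at 1.1 (1.05 to 1.16), PDHX, the binding protein, at 1.07 (0.985 to 1.17) and DLD at 1.17 (1.11 to 1.24). The FPKM ratio of PDHA1 to PDHB was 0.536 with overexpression against 0.634 in the control.

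IDH3B, a regulatory subunit of the NAD-linked isocitrate dehydrogenase on chromosome 20 from 2658395 to 2664219 (minus strand), had 2101 normalized counts with overexpression against 1744 in the control, a ratio of 1.2 (1.13 to 1.28), which TMM scaling (trimmed mean of M values) put under the threshold at 1.196. IDH3G, the other regulatory subunit, had 772 with overexpression against 651 in the control, a ratio of 1.19 (1.07 to 1.32), and the catalytic IDH3A was at 1.05 (0.982 to 1.12). Both regulatory subunits were thus above counting error and the catalytic one was not, though the intervals of IDH3G and IDH3A overlapped. IDH3A also shares 38.9% of its exonic bases with genes on the other strand. Further along the cycle OGDH was at 1.13 (1.08 to 1.18), SUCLA2 and SUCLG2, the beta subunits of the succinyl-CoA ligases, at 1.16 (1.06 to 1.27) and 1.12 (1.06 to 1.19), and MDH2, the malate dehydrogenase of the matrix, at 1.1 (1.07 to 1.14). FH, the fumarase, was the exception with PCK2, at 2530 normalized counts with overexpression and 2685 without it, a ratio of 0.942 (0.892 to 0.995).

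The branched-chain genes called higher under overexpression were ALDH6A1, ACADM, MCCC2 and HIBCH, 4 of 16. ALDH6A1 had 455 normalized counts with overexpression against 335 in the control, 1.36-fold higher (1.18 to 1.57) and the largest ratio of the 38. HIBCH, which frees 3-hydroxyisobutyrate in the same arm (chromosome 2 from 190189735 to 190344193, minus strand), had 351 with overexpression against 288 in the control, a ratio of 1.22 (1.04 to 1.43), or 1.13 in FPKM, which is under the threshold. HIBADH, the step between them, had 2388 with overexpression against 2442 in the control, a ratio of 0.978 (0.924 to 1.04). Both the highest and the lowest ratio of the 16 genes thus lay in the valine arm.

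MCCC2, the non-biotin subunit of methylcrotonyl-CoA carboxylase in the leucine arm (chromosome 5 from 71587288 to 71658704, plus strand), had 1371 normalized counts with overexpression against 1076 in the control, a ratio of 1.27 (1.18 to 1.38). Its partner MCCC1 was at 1.09 (1.01 to 1.19), and IVD, the dehydrogenase one step before, at 1.17 (1.08 to 1.28). The leucine arm was thus above counting error at each of the 3 genes measured. ACADM, the medium-chain acyl-CoA dehydrogenase (chromosome 1 from 75724347 to 75787575, plus strand), had 1931 with overexpression against 1512 in the control, a ratio of 1.28 (1.19 to 1.37). In the branched-chain ketoacid complex itself, the intervals of BCKDHA, at 1.02 (0.932 to 1.12), and BCKDHB, at 0.997 (0.858 to 1.16), held 1. DBT, its transferase core, was above counting error at 1.11 (1.01 to 1.21), as was the shared subunit DLD at 1.17 (1.11 to 1.24). PCCA, the biotin subunit of propionyl-CoA carboxylase, was at 1.14 (1.01 to 1.3) and PCCB at 1.03 (0.968 to 1.09).

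**Figure D3:**
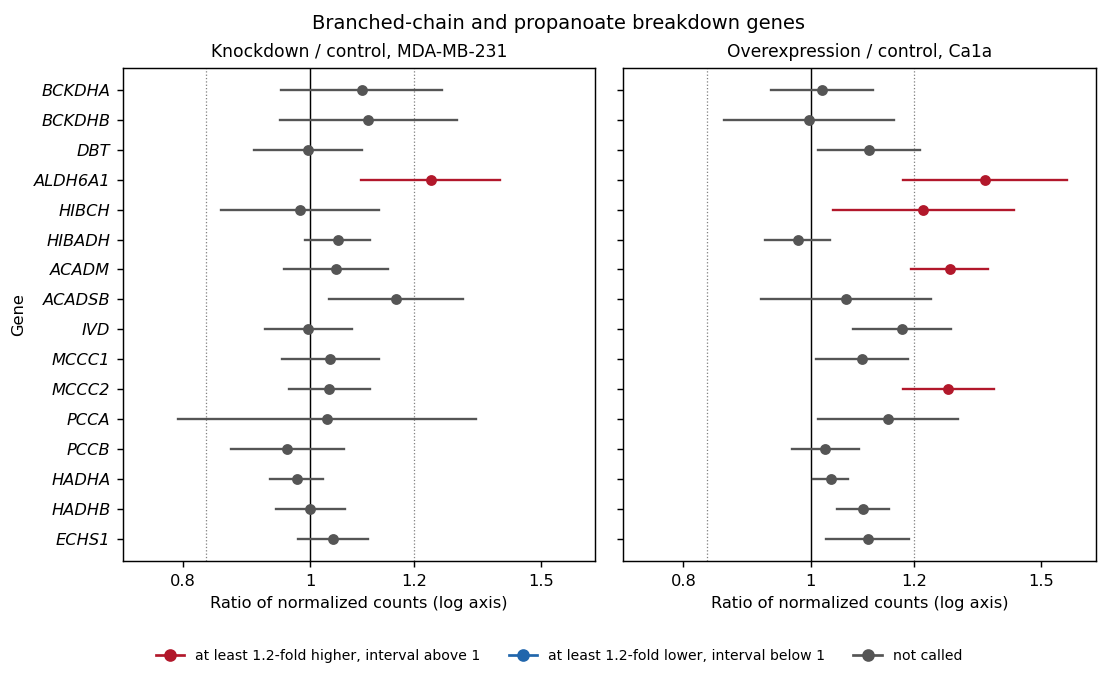
Ratio of treated over control normalized counts (log axis) for each of the 16 branched-chain and propanoate genes under both constructs, with 95% exact counting intervals and lines at the 1.2-fold threshold. ALDH6A1 is past the line in both (1.24 and 1.36), and ACADM, MCCC2 and HIBCH under overexpression alone (1.28, 1.27 and 1.22).

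ALDH6A1 was the 1 gene of the 38 called higher under both constructs, beside 0.573% of the 11349 genes tested in both, and 0 of the 38 were called lower in both, higher under knockdown with lower under overexpression, or the reverse, beside 0.308%, 0.388% and 0.185%. The pairs share no library. In FPKM, ALDH6A1 was at 4.54 with knockdown against 3.67 in the control, and at 3.43 with overexpression against 2.54 in the control, so each treated library was above its own control while MDA-MB-231 was above Ca1a. The authors' deposited table gave p-values under 0.05 for 1 of the 38 genes under knockdown, PC at 0.0295, and for 4 under overexpression, PDHB at 0.0175, ACADM at 0.0185, MCCC2 at 0.025 and ALDH6A1 at 0.0278. For ALDH6A1 under knockdown the authors' deposited table gave 0.0713. The authors' deposited table gave an adjusted p of 1 for each of the 38 genes in both comparisons, while 50 genes of the whole table had one under 0.05 for the knockdown and 24 for the overexpression.

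ALDH6A1 lies on chromosome 14 from 74056850 to 74084493 (minus strand). Its upstream sequence is shown because this was the gene called under both constructs. The stretch below is the RefSeq sequence of GRCh38.p14 at chr14:74084494-74084703, minus strand, 210 bases just before the first exon in GENCODE 29, with CCAAT or its reverse complement ATTGG, the core of the NF-Y motif, in capitals.
ALDH6A1 upstream: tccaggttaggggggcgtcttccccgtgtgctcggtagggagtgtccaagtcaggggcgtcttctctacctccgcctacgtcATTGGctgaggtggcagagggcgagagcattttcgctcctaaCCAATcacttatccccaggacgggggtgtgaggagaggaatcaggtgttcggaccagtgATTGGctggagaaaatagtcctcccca
The stretch holds 3 such matches, 58.1% G and C bases and 10 CpG dinucleotides, and the whole promoter window, 250 bases before to 50 after the start, holds 4. At least 4 matches were found in 1 of the 36 member windows and in 1.15% of the 27305 genes with a window. LIN52, which starts 503 bases away on the other strand, had 289 normalized counts with knockdown against 249 in the control, a ratio of 1.16 (0.979 to 1.38), and 100 with overexpression against 97 in the control. Its ratios did not leave counting error.

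The 36 windows were searched on both strands for 15 motifs. A match describes the letters only. OGDH and HIBADH had no window. CCAAT was in 20 windows, 55.6%, and in 39.7% of all genes. The letters AAGATGGCG, the core of the YY1 motif, were in 5 windows, 13.9%, and in 2.14% of all genes. Those 5 are shown because PDHB, the TCA gene with the largest overexpression ratio, and BCKDHA, a gene that differed between the lines, are among them. Capitals mark the motif, or its reverse complement in ACADSB, in the RefSeq sequence of GRCh38.p14 at chr3:58433794-58433822 (minus strand), chr11:34916643-34916667, chr3:67654571-67654599 (minus strand), chr19:41397815-41397843 and chr10:123008771-123008799, in that order.
PDHB: ggacacgaccAAGATGGCGgcggtgtctg
PDHX: gaaggccgtcAAGATGGCGgcctcc
SUCLG2: tttcctgtttAAGATGGCGtcccccgtag
BCKDHA: gttgttagccAAGATGGCGgtagcgatcg
ACADSB: cagtcgccgcCGCCATCTTtgttgtgtct
In PDHB, PDHX, SUCLG2 and BCKDHA the motif lies 8 to 36 bases after the gene start and holds the annotated start codon. In ACADSB its first base is at -225 from the start. The overexpression ratios of the 5 were 1.28, 1.07, 1.12, 1.02 and 1.06, in the same order. All were above 1, as were 31 of the 38 genes, and the intervals of PDHX, BCKDHA and ACADSB held 1. The knockdown ratios of the 5 were 0.993, 1.11, 0.976, 1.09 and 1.16, some above 1 and some below. A link between motif and ratio was not tested. The other motifs overlap one another in part. A looser YY1 motif, AANATGGCG, which includes the first, was in 8 windows (22.2%, against 3.85% of all genes). CCGGAAG (ETS) was in 4 windows (12.2% of all genes), CCGGAAGT (GABPA), which includes it, in 3 (4.95%), a looser NRF1 motif in 4 (6.98%), TGACNNNGC (NFE2L2) in 4 (16.1%), CACGTG (E-box) in 3 (8.77%) and AAGGTCA (nuclear receptor core) in 1 (4.8%). The full NRF1 motif (1.52% of all genes), TCAAGGTCA (ESRRA, 0.432%), TGACGTCA (CREB, 2.25%), TGATGCAA and TGATGNAAN (ATF4 with CEBP, 1.08% and 4.45%) and the ZNF143 motif (1.21%) were in none of these 36 windows.

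Levels between genes were compared in FPKM, which is per length. The 22 TCA genes summed to 666 FPKM with knockdown and 651 in the control, and to 769 FPKM with overexpression and 726 in the control. MDH2 was the highest of them in every library, at 76.6 FPKM with knockdown and 74.2 in the control, and at 84.9 FPKM with overexpression and 76.1 in the control. The lowest were SUCLA2 in MDA-MB-231, at 8.39 FPKM with knockdown against 8.2 in the control, and ACO1 in Ca1a, at 11.1 FPKM with overexpression against 9.78 in the control. As a fold between lowest and highest, the range over these enzymes was narrower than over the branched-chain genes. Those 16 summed to 233 FPKM with knockdown and 230 in the control, and to 333 FPKM with overexpression and 313 in the control, with ECHS1, an enoyl-CoA hydratase, highest in MDA-MB-231 (64.3 FPKM with knockdown, 62.4 in the control) and HADHA, the alpha subunit of the trifunctional protein, highest in Ca1a (95.1 FPKM with overexpression, 93.8 in the control). PCCA was lowest in MDA-MB-231 at 1.59 FPKM with knockdown and 1.36 in the control, and BCKDHB in Ca1a at 1.76 FPKM with overexpression and 1.91 in the control.

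The comparison of the control libraries, MDA-MB-231 over Ca1a, asked how the lines differ without a TMEM126A construct. A gene was called at 1.5-fold in FPKM with an interval that left out 1. Of the 22 TCA genes 3 were called higher and 3 lower in MDA-MB-231, and of the 16 branched-chain genes 1 higher and 6 lower, beside 41.3% of all 13371 genes tested called higher and 21.0% called lower. For genes averaging 1000 or more these shares were 30.8% and 22.5%. The TCA group had a median log2 ratio of -0.22 and the branched-chain group -0.08, against 0.24 over all genes. Scaling by TMM took the median of all genes to 0.01, and the group medians were then -0.50 and -0.42. Under TMM 1 TCA gene was called higher and 9 lower, and 0 branched-chain genes higher and 6 lower. The split between the lines thus depends on the scaling, while the branched-chain count called lower stayed at 6. In FPKM those 6 included ACADM, HADHA and HADHB, which also act in fatty acid oxidation.

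ACO1, the cytosolic aconitase that also acts as the iron regulatory protein IRP1, had the largest ratio of MDA-MB-231 over Ca1a among the 38 genes. It had 45.7 FPKM in the MDA-MB-231 control and 9.78 FPKM in the Ca1a control, a ratio of 4.67 (4.36 to 5.01), and was at 45.1 FPKM in the knockdown library and 11.1 in the overexpression library. Both MDA-MB-231 libraries were thus far above both Ca1a libraries for this gene.

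IDH1 showed the opposite order of lines, with 11.3 FPKM in the MDA-MB-231 control and 62.5 FPKM in the Ca1a control, a ratio of 0.182 (0.17 to 0.194). IDH2 differed less, at 13.2 FPKM in the MDA-MB-231 control and 18.5 in the Ca1a control. The FPKM ratio of IDH1 to IDH2 was 0.86 in the MDA-MB-231 control and 3.38 in the Ca1a control. PCK2 was at 12 FPKM in the MDA-MB-231 control and 42.8 FPKM in the Ca1a control, a ratio of 0.28 (0.262 to 0.299), and SUCLG1, the alpha subunit of the succinyl-CoA ligases, at 33.5 FPKM in MDA-MB-231 and 62.5 in Ca1a, a ratio of 0.537 (0.5 to 0.577). PDHB was called higher in MDA-MB-231, at 58 FPKM against 38.5 in Ca1a, and so was IDH3G, at 22.8 FPKM against 14.1 in Ca1a. Both treated libraries kept to the side of their lines for ACO1, IDH1, PCK2 and SUCLG1.

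The propanoate and trifunctional protein genes were the lower ones in MDA-MB-231. PCCA had 1.36 FPKM in the MDA-MB-231 control and 6.05 FPKM in the Ca1a control, a ratio of 0.225 (0.183 to 0.276), and PCCB had 11.8 FPKM in MDA-MB-231 and 32.7 in Ca1a, a ratio of 0.36 (0.332 to 0.391). Both subunits of propionyl-CoA carboxylase were thus lower in MDA-MB-231, where PCCA was also the least abundant of the 38 genes. HADHA and HADHB, the subunits of the trifunctional protein of fatty acid oxidation, start 307 bases apart on opposite strands of chromosome 2. HADHA had 44.5 FPKM in the MDA-MB-231 control and 93.8 in the Ca1a control, a ratio of 0.475 (0.457 to 0.494), and HADHB had 24.9 FPKM in MDA-MB-231 and 41.6 in Ca1a, a ratio of 0.598 (0.567 to 0.631). ACADM was at 10.7 FPKM in the MDA-MB-231 control and 16.4 in the Ca1a control, a ratio of 0.652 (0.6 to 0.709).

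BCKDHA had 9.05 FPKM in the MDA-MB-231 control and 22.8 FPKM in the Ca1a control, a ratio of 0.398 (0.352 to 0.448), while its partner BCKDHB was at 1.53 FPKM in MDA-MB-231 and 1.91 in Ca1a. The FPKM ratio of BCKDHA to BCKDHB was 5.91 in the MDA-MB-231 control and 11.9 in the Ca1a control. The value of BCKDHA is uncertain, since 64.6% of its exonic bases in GENCODE 29 are shared with a readthrough gene and with EXOSC5 on the other strand. IDH3A, PCCB and PDHA1 share 38.9%, 22.1% and 21.3% with genes on the other strand. ACADSB was called higher in MDA-MB-231, at 3.06 FPKM against 1.96 in the Ca1a control, a ratio of 1.56 (1.36 to 1.79). ECHS1, MCCC2, HIBCH, IVD and ALDH6A1 lay just under the threshold, with ratios of 1.44 to 1.47.

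**Figure D4:**
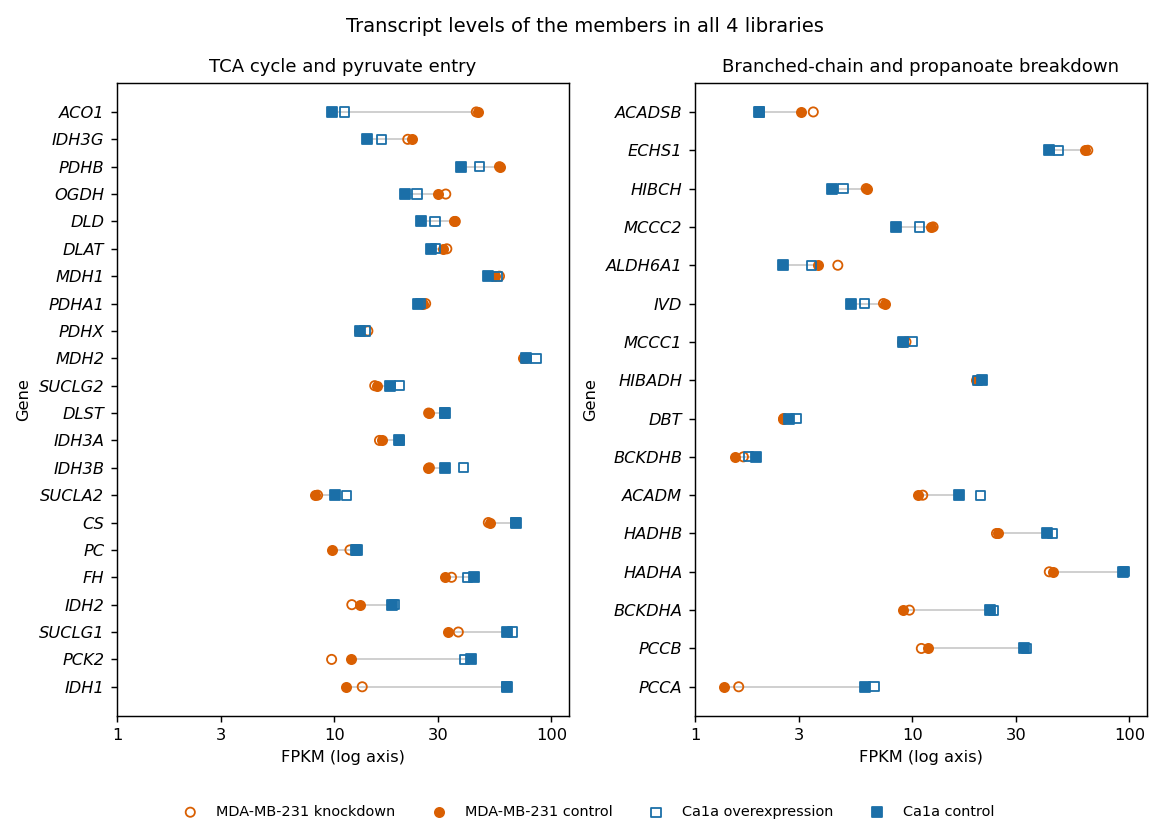
FPKM (log axis) of each of the 38 genes in the 4 libraries, with the TCA genes and the branched-chain genes in separate panels and 1 marker a library. ACO1 stands higher in both MDA-MB-231 libraries (45.1 and 45.7 FPKM) than in both Ca1a libraries (11.1 and 9.78), and IDH1, PCK2 and PCCA stand lower there.

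Both MDA-MB-231 libraries were at least 1.5-fold above both Ca1a libraries for ACO1 and ACADSB, 2 of 38 genes, beside 38.6% of all 14047 genes compared. Both were at least 1.5-fold below for IDH1, SUCLG1, PCK2, BCKDHA, PCCA, PCCB, HADHA and HADHB, 8 of 38 genes, beside 18.4% of all. The rule itself takes in the knockdown and overexpression libraries, so these 10 genes lie on the side of their line in every library by selection.

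Of 72 further genes of the same pathways in 6 lists, few passed 1.2-fold. The counts below stand beside 5.33% of all genes tested called higher and 3.39% lower under knockdown, and 5.76% and 5.94% under overexpression. Among the 9 regulators of pyruvate dehydrogenase and pyruvate carrier genes, 0 were called higher and 1 lower under knockdown, and 2 higher and 0 lower under overexpression. PDK4, a kinase that switches pyruvate dehydrogenase off, had 259 normalized counts with knockdown against 329 in the control, a ratio of 0.788 (0.667 to 0.93). In Ca1a PDK4 had 545 with overexpression against 425 in the control, a ratio of 1.28 (1.13 to 1.46). It was thus below its control under knockdown in 1 line and above it under overexpression in the other. The same directions held for most of this list, with 8 of the 9 genes below their control under knockdown and 8 above under overexpression. A link to the level of TMEM126A was not tested. PDK3, another such kinase, had 542 normalized counts with overexpression against 429 in the control, a ratio of 1.26 (1.11 to 1.44), and was at 0.934 (0.815 to 1.07) under knockdown. PDK1 was at 0.835 (0.744 to 0.937) under knockdown and 1.11 (1.01 to 1.21) under overexpression, which did not reach 1.2-fold. PDK2 had 7.12 FPKM in the MDA-MB-231 control and 0.179 FPKM in the Ca1a control, a ratio of 39.8 (25.9 to 64.8).

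The 20 genes of the other TCA enzymes and carbon exchange had 0 called under either construct, of 19 tested for the knockdown and 18 for the overexpression. They include the succinate dehydrogenase subunits: SDHB, SDHC and SDHD were at 1.11 (1.06 to 1.17), 1.15 (1.05 to 1.27) and 1.16 (1.06 to 1.27) under overexpression, and SDHA at 1.01 (0.961 to 1.05). Between the controls 8 of 19 were called higher and 9 lower, beside 41.3% and 21.0% of all genes tested. ME1, the cytosolic malic enzyme, had 6.56 FPKM in the MDA-MB-231 control and 46.9 FPKM in the Ca1a control, a ratio of 0.14 (0.129 to 0.152). ME3, a mitochondrial malic enzyme, had 4.69 FPKM in the MDA-MB-231 control and was listed at 0 in the Ca1a control. SLC25A1, the mitochondrial citrate carrier, had 24.9 FPKM in the MDA-MB-231 control and 94.4 in the Ca1a control, a ratio of 0.264 (0.245 to 0.284).

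Uptake and transamination of the branched-chain amino acids, a list of 7 genes, had 0 called under either construct, of 7 tested for the knockdown and 6 for the overexpression. BCAT1, the cytosolic transaminase of the first step, had 4837 normalized counts with knockdown against 5470 in the control, a ratio of 0.884 (0.851 to 0.919), and 2 with overexpression against 1 in the control. BCAT1 was thus abundant in MDA-MB-231, against 1 or 2 counts in Ca1a. The mitochondrial BCAT2 was at 20.1 FPKM in the MDA-MB-231 control and 30.6 FPKM in the Ca1a control. SLC25A44, which carries branched-chain amino acids into mitochondria, had 8.17 FPKM in the MDA-MB-231 control and 3.24 in the Ca1a control, a ratio of 2.52 (2.26 to 2.82). SLC7A5, a plasma membrane importer, had 107 FPKM in the MDA-MB-231 control and 232 in the Ca1a control, a ratio of 0.459 (0.448 to 0.47).

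The 13 other steps of branched-chain and propanoate breakdown, of which 13 were tested for the knockdown and 12 for the overexpression, had 1 gene called lower under each construct. AUH, the methylglutaconyl-CoA hydratase that follows MCCC1 and MCCC2 in the leucine arm, had 332 normalized counts with knockdown against 426 in the control, a ratio of 0.78 (0.674 to 0.902). ACADS, the short-chain acyl-CoA dehydrogenase, had 282 with overexpression against 341 in the control, a ratio of 0.827 (0.704 to 0.971). ACAD8, the isobutyryl-CoA dehydrogenase of the valine arm, had 5.52 FPKM in the MDA-MB-231 control and 1.4 FPKM in the Ca1a control, a ratio of 3.94 (3.43 to 4.55).

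Of the 11 lipoate, biotin and thiamine genes, 10 were tested for each construct. BTD, which recycles biotin, was the 1 called under knockdown, at 493 normalized counts against 411 in its control, a ratio of 1.2 (1.05 to 1.37), and 0 were called under overexpression. LIAS, the lipoate synthase that serves the dehydrogenase complexes, had 1.92 FPKM in the MDA-MB-231 control and 7.46 FPKM in the Ca1a control, a ratio of 0.257 (0.211 to 0.311). Of 12 further genes of fatty acid oxidation, SLC25A20, the carnitine and acylcarnitine carrier, was called lower under knockdown, at 404 normalized counts against 508 in its control, a ratio of 0.794 (0.695 to 0.907), and 0 were called under overexpression. ACAA2, the mitochondrial thiolase, had 15.1 FPKM in the MDA-MB-231 control and 56.2 FPKM in the Ca1a control, a ratio of 0.269 (0.249 to 0.289), and ETFA and ETFB, the electron transfer flavoprotein subunits that take electrons from IVD, ACADM and ACADSB, were at 0.526 (0.501 to 0.552) and 0.513 (0.477 to 0.551).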

How the data were processed

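RNA from 4 libraries was sequenced, 1 a group. Per the submitters' processing notes, the builds named were GRCh38.p5 and hg38 and the tools HISAT2, Cufflinks, HTSeq and DESeq. Their versions, their order and the strand handling were not given in the sources used here. Deposited files held FPKM values and, for each line, the authors' comparison of treated with control. For MDA-MB-231 the authors deposited a normalized signal per library, read counts divided by a size factor (0.994 and 1.01). For Ca1a the deposited columns were whole counts. Both are called normalized counts here, and 100% of the values were whole multiples of 1 step a library within 1e-06. The authors' deposited fold ratio, log2 ratio and p-values were printed only where named. Ratios were taken on normalized counts for the constructs and on FPKM for the controls. Intervals were exact Clopper-Pearson at 95%, from the reads, in Python 3.11.15 with scipy 1.17.1. Genes with a mean of at least 20 were kept, and medians used log2(value + 1). These steps were checked on simulated data. TMM factors came from edgeR 4.0.16 in R 4.3.3. No count test was run, since each group has 1 library and no spread between cultures was measured.

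The 38 genes and the lists were chosen with earlier results of these data known. Values were given for genes called in a comparison, for the 3 highest and 3 lowest ratios of each gene group, for the highest and lowest FPKM, and for up to 3 called genes of each further list. Single genes beside them in the text, such as partner subunits, were chosen after their values were seen. Alternatives were FPKM, total reads, TMM, other filters, pseudocounts of 5 and 0.5, other fold thresholds and no interval. Positions and shared exonic bases are from GENCODE 29 on GRCh38, and sequences from RefSeq on GRCh38.p14, matched by Entrez gene identifier for 36 of 38 genes.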

Additional observations from a re-analysis of the deposited data

How the results depend on the processing

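Of 126 alternative values for group medians and counts of calls, 110 stayed within the limits set and 16 moved. The knockdown medians shrank most with total reads, to 0.01 and 0.02, and the overexpression medians with FPKM, to 0.08 and 0.10. At 1.5-fold in place of 1.2-fold, the calls under both constructs came to 0 in each gene group. Scaling by total reads took the TCA genes called higher under knockdown to 0, since PC fell below 1.2-fold at 1.19. TMM took those called higher under overexpression to 1, with IDH3B at 1.196. With FPKM, HIBCH was at 1.13 under overexpression and was not called. For the other 24 of 27 single-gene alternatives the call stayed, and 0 reversed. Between the controls, the TCA median was -0.50 with TMM and -0.46 after the median of all genes was subtracted, an alternative chosen after seeing the data, and the branched-chain median was -0.42 and -0.32. With TMM, 1 TCA gene was called higher and 9 lower, and 0 branched-chain genes higher and 6 lower. At 2-fold, 1 TCA gene and 0 branched-chain genes were called higher, and 2 TCA genes and 4 branched-chain genes lower. No paired analysis was possible because each group has 1 library. Between the lines, the difference cannot be told apart from the medium. Counting intervals leave out the spread between cultures, which was not measured.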
